A study of Mus musculus with 6 samples.

Results

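The antioxidant, iron and ferroptosis genes are a set of 35 genes chosen by name from the NRF2 pathway, glutathione synthesis, the thioredoxin system, iron handling and lipid peroxidation, because sorafenib (Sora) can induce ferroptosis. All 35 were among the 22939 genes of the deposited table, and 34 of them were among the 13463 genes with enough reads for a test. RNA-seq had been performed on 6 libraries of mouse regulatory T (Treg) cells, 3 cultured without Sora (ctrl-Treg cells) and 3 cultured with it (Sora-Treg cells). Naive CD4+ T cells of Foxp3GFP mice (C57BL/6J), which carry GFP knocked into their own Foxp3 locus, were differentiated in both groups with plate-bound anti-CD3 and anti-CD28, TGF-β1, anti-IFN-γ and anti-IL4, and GFP+ cells were sorted. The sort was therefore meant to leave out, in both groups, cells that had not turned on Foxp3. Myeloid and B cell markers were still detected, as given below. The labels give no age, dose, time or batch for these libraries. Sora is a multikinase inhibitor used in liver cancer.

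Ferroptosis is an iron-dependent form of cell death in which peroxidized membrane lipids accumulate. The cystine-glutamate exchanger system xc- brings in cystine for glutathione, the glutathione peroxidase GPX4 uses glutathione to reduce lipid peroxides, and blocking either can start ferroptosis in many cell types. Free ferrous iron drives the peroxidation, so iron uptake, ferritin storage and heme breakdown bear on it, and NRF2 is the transcription factor that raises many of the protective genes when KEAP1 releases it. Activated T cells take up much cystine and iron while they proliferate.

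Iron handling is controlled in part by iron-responsive elements (IREs), short hairpins in mRNA that the iron regulatory proteins bind when iron is scarce. Bound at the 5′ end of an mRNA they block translation, as for ferritin, and bound in the 3′ UTR of Tfrc they protect the mRNA from decay. The elements found in 4 of the genes are shown because the level of Tfrc mRNA, unlike that of ferritin mRNA, is set partly through them. Each runs 5′ to 3′ over 29 bases, with the hairpin loop CAGTGN in capitals. Coordinates are on GRCm38 with GENCODE M21 transcripts.
Fth1, 5′ UTR, plus strand, chr19:9982732-9982760: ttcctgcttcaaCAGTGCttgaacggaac
Ftl1, 5′ UTR, minus strand, chr7:45459779-45459807: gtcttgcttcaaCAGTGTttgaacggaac
Slc40a1, 5′ UTR, minus strand, chr1:45925465-45925493: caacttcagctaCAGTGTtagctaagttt
Tfrc, 3′ UTR, plus strand, chr16:32631219-32631247: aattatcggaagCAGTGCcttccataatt
Tfrc, 3′ UTR, plus strand, chr16:32631598-32631626: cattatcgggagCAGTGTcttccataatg
Tfrc, 3′ UTR, plus strand, chr16:32631663-32631691: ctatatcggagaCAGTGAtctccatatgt
Tfrc, 3′ UTR, plus strand, chr16:32631710-32631738: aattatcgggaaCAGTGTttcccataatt

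The elements of the ferritin genes Fth1 and Ftl1 had the same base at 26 of 29 positions, while the Fth1 and Slc40a1 elements shared 13. A loop of this kind on a paired stem with an unpaired C below it was present in the 5′ UTR of 0.142% and in the 3′ UTR of 0.59% of 21877 protein-coding genes. The search asked for a fully paired upper stem, so elements with a mismatch or a bulge there would be missed. These matches describe the annotated transcripts and say nothing of binding in these cells.

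The promoter of Slc7a11 is shown because this gene had the largest change of the set. In its stretch below, the capitals mark the pattern TGATGNAA, the core of the amino acid response element that ATF4 and its partners recognize, found here on both strands. Promoter windows were those of RefSeq on GRCm38.p6, from 250 bases before to 50 bases after a gene's start.
Slc7a11, minus strand, chr3:50443633-50443699: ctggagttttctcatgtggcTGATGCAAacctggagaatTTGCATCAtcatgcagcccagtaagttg

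Of 32851 such windows, 3.97% held TGATGNAA on either strand, and 4.51% of all genes with a window had it. Of the 35 genes of the set 29 had a window, and Slc7a11 alone of these (3.45%) held it. The pattern TGACNNNGC, the core of the antioxidant response element through which NRF2 acts, was present in 12.4% of windows. Counted by gene, 14% of all genes with a window and 8 of the 29 (27.6%) had it. These were Nfe2l2, Blvra, Srxn1, Gclm, Prdx1, Txnrd1, Ncoa4 and Sod1. Shown, with the pattern in capitals, are the stretches of the 3 of these that are NRF2 targets and were lower in Sora-Treg cells. This choice was made with the values seen. Srxn1, also an NRF2 target, is not shown and had a fitted log2 change of 0.37, which was not called.
Gclm, plus strand, chr3:122245403-122245451: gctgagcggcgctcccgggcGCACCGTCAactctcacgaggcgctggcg
Prdx1, plus strand, chr4:116685446-116685494: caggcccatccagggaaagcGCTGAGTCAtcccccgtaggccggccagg
Txnrd1, plus strand, chr10:82859094-82859142: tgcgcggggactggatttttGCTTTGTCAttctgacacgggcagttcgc

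A match is a run of letters and not a shown site. No window was present for Gclc, Gsr, Hmox1, Slc40a1, Slc11a2 and Prdx6.

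Library totals ranged from 30727686 to 37717324 counts, and 3 counts corresponded to between 0.0762 and 0.0989 CPM, counts scaled to a common library size. CPM values are scaled by the trimmed mean of M-values (TMM) throughout and compare libraries for 1 gene, while FPKM, which also divides by gene length, compares genes. Nothing states whether the libraries of a group came from separate cultures or animals, so p-values measure the spread between these samples, which may be technical. T and Treg markers were present in every library, with a summed level of 4033 to 4067 CPM in ctrl-Treg and 7134 to 7253 CPM in Sora-Treg cells over 8 genes. The summed level of 10 myeloid markers was 108, 107 and 27.6 CPM in ctrl-Treg libraries 1, 2 and 3 and 24.4, 47.4 and 23.3 CPM in Sora-Treg libraries 1, 2 and 3. None of the 10 was at 0 in any library, and 9 of them were at least 2-fold higher in ctrl-Treg libraries 1 and 2 than in ctrl-Treg library 3. Summed levels of 5 B cell markers were 9.71 to 10.7 and 6.09 to 7.68 CPM. In the fit described next, 7 of 8 T and Treg markers were higher in Sora-Treg cells, and 6 of 9 tested myeloid markers and 4 of 4 tested B cell markers were lower.

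Of the 34 tested genes, 13 were higher and 16 were lower in Sora-Treg cells at an adjusted p under 0.05, by the quasi-likelihood (QL) test of edgeR with Benjamini-Hochberg adjustment over all tested genes. The 13 are 38.2% of the set, where 29.7% of all tested genes were higher, and the 16 are 47.1%, where 29.9% of all tested genes were lower. Most changes were small. By the limits of the study, which ask for an adjusted p under 0.05 and more than a 2-fold change, 6.3% of all tested genes were differentially expressed genes (DEGs) that were higher and 4.97% were DEGs that were lower. No gene of the set was a DEG that was higher, and 2, Slc7a11 and Steap3, were DEGs that were lower.

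The values of the groups did not overlap for 30 of the 34 genes, 13 higher and 17 lower, where the groups of 63.7% of all tested genes did not overlap. The median absolute log2 fold change was 0.37 in the set and 0.28 over all tested genes. The set was also more abundant, with a median level of 5.80 against 4.53 in mean log2 CPM. Among genes at or above a mean log2 CPM of 5, a limit chosen after the data were seen, 22 of 24 genes of the set passed the test in either direction, against 72.7% of all such genes. The 34 genes are a hand-picked list, so these shares are descriptions.

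**Figure D1:**
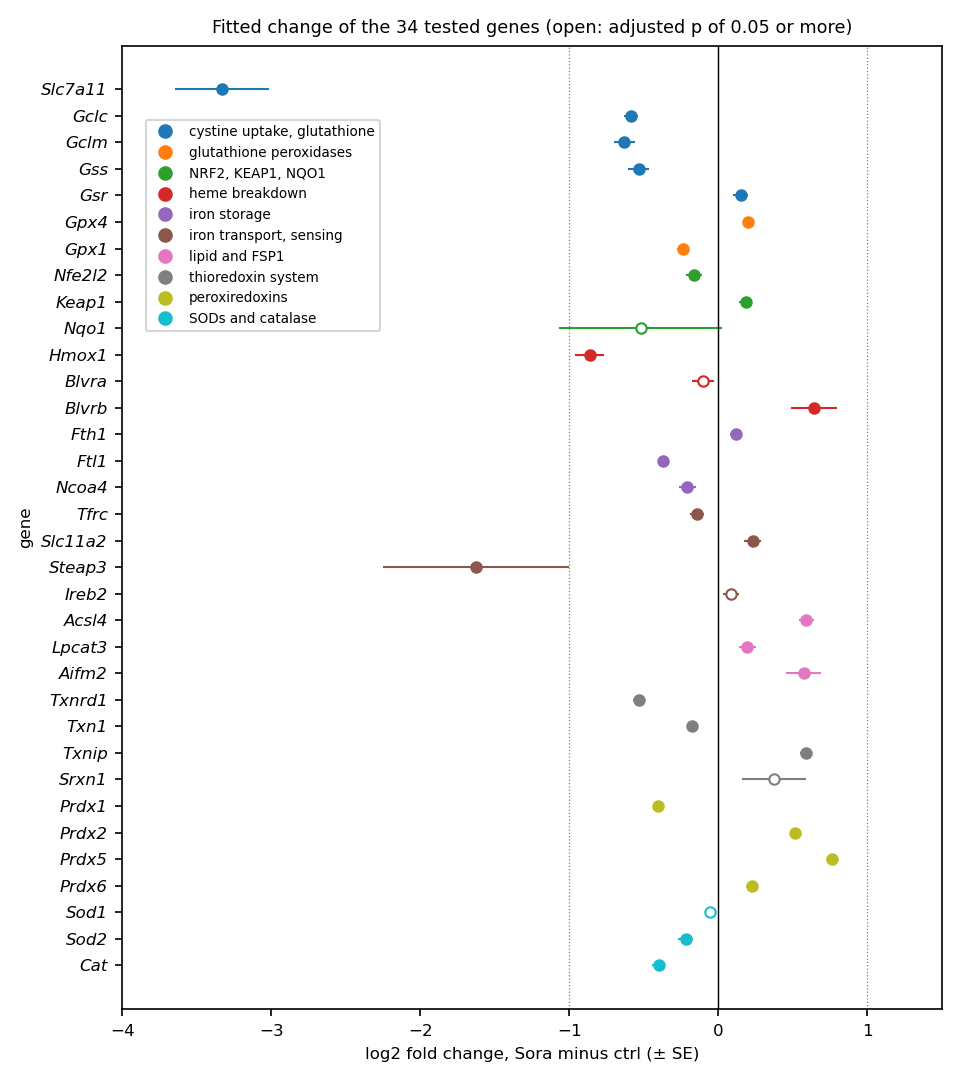
Log2 fold change (Sora-Treg minus ctrl-Treg, x axis) of the 34 tested genes (y axis), with the standard error of the edgeR fit (n = 3 libraries a group), coloured by role. Filled points passed an adjusted p of 0.05, and dotted lines mark log2 fold changes of 1 and -1. Slc7a11 and Steap3 lie below -1, and the other points lie between -0.87 and 0.76.

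**Figure D2:**
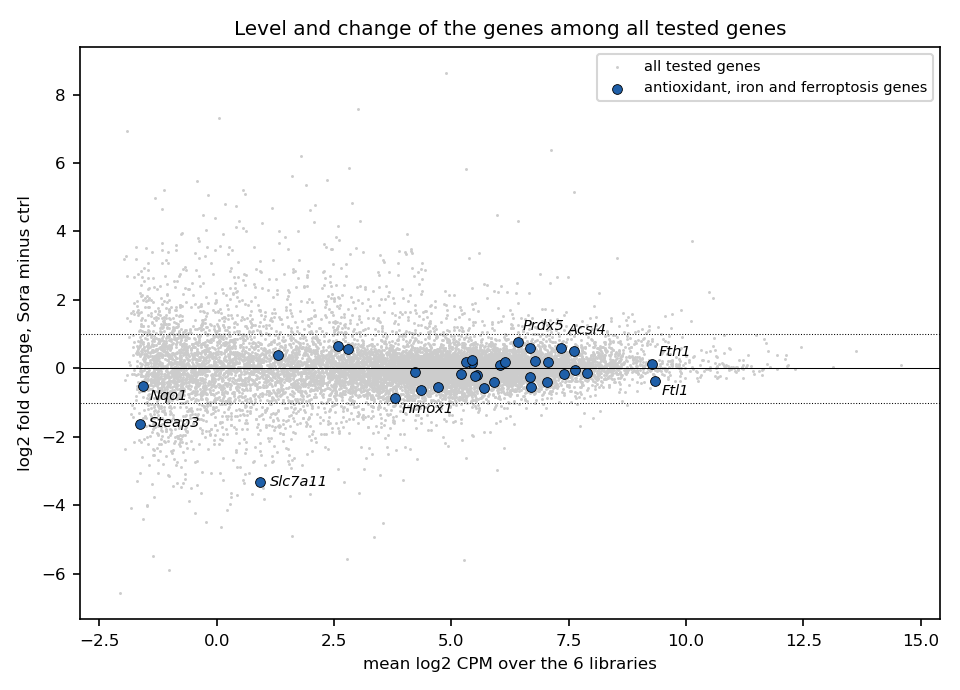
Log2 fold change (Sora-Treg minus ctrl-Treg, y axis) against the mean log2 CPM over the 6 libraries (x axis) for 13463 tested genes (grey) and the 34 antioxidant, iron and ferroptosis genes (blue). Most of the blue points lie within 1 log2 unit of 0, at a median level above that of all genes.

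Changes of this size depend on how libraries are scaled. With libraries scaled by their totals alone, the median log2 fold change of all tested genes moved by -0.12, and 8 genes of the set (23.5%) were then higher and 18 (52.9%) lower. The shares of all tested genes under that scaling were 21.3% higher and 41.7% lower. Against the median of all genes, which was -0.0035 with TMM, the median of the set was -0.12, and with library totals these medians were -0.12 and -0.24. In bulk RNA, fewer cells of a type and less RNA per cell cannot be told apart.

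Of the 5 genes of cystine uptake and glutathione synthesis and recycling, 4 were lower in Sora-Treg cells, from the transporter to the last synthetic enzyme. Over all tested genes 29.9% were lower, and 41.7% with library totals, where the same count of 4 held. The 5 genes were chosen by name, so their count is a description. Slc7a11 encodes xCT, the transporter subunit of system xc-. It stood at 3.91, 3.19 and 2.51 CPM in ctrl-Treg and at 0.297, 0.220 and 0.421 CPM in Sora-Treg libraries. All Sora-Treg values lay far below the lowest ctrl-Treg value. On the log2 scale it came to -3.33 ± 0.32 (SE, edgeR QL adjusted p = 4.3e-09), a 10.1-fold lower level. This rests on 350 counts without and 31 counts with Sora, so the gene was a rare mRNA in both groups, at mean levels of 0.355 and 0.0320 FPKM. Against the single ctrl-Treg library with few myeloid markers, library 3, the log2 fold change was -2.98 (edgeR QL adjusted p = 6.6e-05). The part of myeloid cells in this difference was not tested.

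Slc3a2 encodes CD98, the heavy chain that xCT shares with other amino acid transporters. The ratio of Slc7a11 to Slc3a2 FPKM within a library was 0.0135, 0.0111 and 0.00827 in ctrl-Treg libraries and 0.00143, 0.00110 and 0.00203 in Sora-Treg libraries, without overlap. Slc3a2 itself was lower by a smaller amount, with a log2 fold change of -0.52 ± 0.03 (SE, edgeR QL adjusted p = 1.2e-12).

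Glutamate-cysteine ligase, the rate-limiting enzyme of glutathione synthesis, has a catalytic subunit from Gclc and a modifier subunit from Gclm. Gclc stood at 61.9, 62.9 and 60.9 CPM in ctrl-Treg libraries and at 38.5, 40.7 and 44.3 CPM in Sora-Treg libraries. Gclm stood at 24.5, 24.6 and 24.5 CPM and at 16.5, 14.8 and 16.2 CPM. Both fell without overlap of the groups. The log2 fold change was -0.59 ± 0.05 for Gclc (SE, edgeR QL adjusted p = 7.3e-10) and -0.63 ± 0.07 for Gclm (SE, edgeR QL adjusted p = 6.7e-08). The ratio of Gclm to Gclc FPKM within a library overlapped between the groups, at 0.671 ± 0.00947 without and 0.653 ± 0.0616 with Sora (SD, n = 3).

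Gss, the synthetase of the second step, fell from 31.0 ± 0.331 to 21.4 ± 2.17 CPM (SD, n = 3), or in log2 terms -0.53 ± 0.07 (SE, edgeR QL adjusted p = 6.7e-07). Gsr, which regenerates reduced glutathione with NADPH, was the exception. Its fold change was 0.15 ± 0.05 on the log2 scale (SE, edgeR QL adjusted p = 0.012). The call was lost in 7 of 17 alternatives. Among them were the fit without Sora-Treg library 3 (0.12, edgeR QL adjusted p = 0.074) and that with libraries scaled by their totals (0.034, edgeR QL adjusted p = 0.57).

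**Figure D3:**
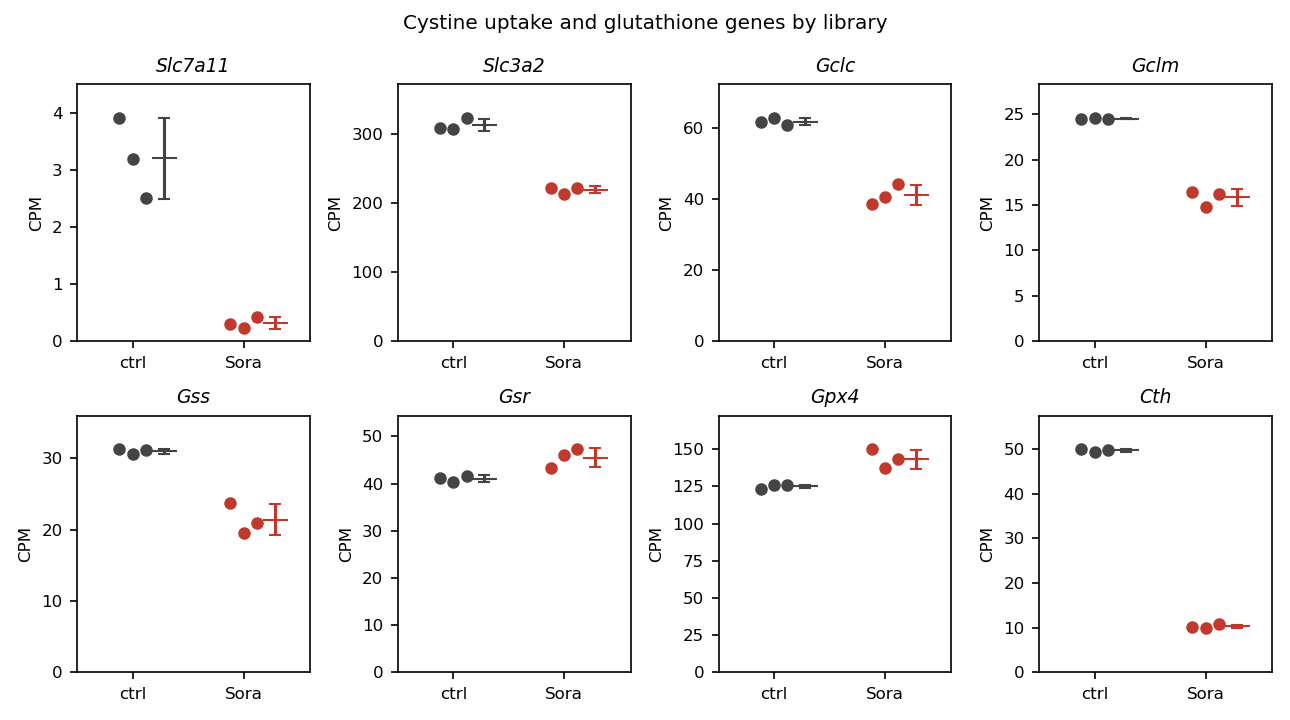
TMM-scaled CPM (y axis, from 0, a scale per panel) of 8 genes of cystine uptake and glutathione in each of 3 ctrl-Treg (dark) and 3 Sora-Treg (red) libraries, with the mean and SD beside the points. Slc7a11, Slc3a2, Gclc, Gclm, Gss and Cth lie lower in every Sora-Treg library than in any ctrl-Treg library, and Gsr and Gpx4 lie higher.

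The glutathione peroxidases moved in opposite directions. Gpx4, whose protein reduces lipid hydroperoxides in membranes, stood at 123, 126 and 126 CPM in ctrl-Treg and at 150, 137 and 143 CPM in Sora-Treg libraries. Its log2 fold change was 0.20 ± 0.04 (SE, edgeR QL adjusted p = 5.4e-05), and all Sora-Treg values were higher. The call was lost in 3 of 17 alternatives, among them limma on log2(FPKM + 1), where the log2 fold change was 0.082 (adjusted p = 0.054). Gpx1, the abundant cytosolic peroxidase, had a lower level, by -0.24 ± 0.04 in log2 terms (SE, edgeR QL adjusted p = 1.3e-05). In ctrl-Treg cells both mRNAs had a mean level of 110 to 111 FPKM.

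NRF2 and its inhibitor changed little. Nfe2l2, which encodes NRF2, stood at 40.0, 37.9 and 38.6 CPM in ctrl-Treg and at 34.1, 34.0 and 35.8 CPM in Sora-Treg libraries. Keap1, the adaptor that marks NRF2 for degradation, stood at 66.2, 68.7 and 63.3 CPM and at 77.6, 71.0 and 76.6 CPM. Neither pair of groups overlapped. The log2 fold change was -0.16 ± 0.05 for Nfe2l2 (SE, edgeR QL adjusted p = 0.0090) and 0.18 ± 0.04 for Keap1 (SE, edgeR QL adjusted p = 0.0012). The call of Nfe2l2 was lost against ctrl-Treg library 3 alone (-0.16, edgeR QL adjusted p = 0.13). That of Keap1 was lost with library totals (0.068, edgeR QL adjusted p = 0.19) and in the 3 FPKM fits. NRF2 is regulated mainly as a protein, which was not measured.

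Nqo1, a quinone reductase and a common readout of NRF2, was near the detection limit. Its counts were 8, 18 and 9 without Sora and 7, 10 and 5 with Sora. These are 0.203, 0.495 and 0.282 CPM and 0.231, 0.314 and 0.140 CPM, which overlap. The fitted log2 change was -0.52 ± 0.55 (SE, edgeR QL adjusted p = 0.43). No difference was detected at this depth. The ratio of the summed counts, Sora-Treg over ctrl-Treg, was 0.692, with an exact 95% interval of 0.387 to 1.21. This interval covers counting error only.

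Among the genes of heme breakdown, heme oxygenase 1 fell and biliverdin reductase B rose. Hmox1, whose product opens heme and releases its iron, stood at 20.2, 16.4 and 16.3 CPM in ctrl-Treg and at 9.03, 9.10 and 10.9 CPM in Sora-Treg libraries. Every Sora-Treg library was below every ctrl-Treg library, and the log2 fold change was -0.87 ± 0.10 (SE, edgeR QL adjusted p = 1.1e-07). Hmox1 is also strongly expressed by macrophages. Against ctrl-Treg library 3 alone, in which myeloid markers were as low as in Sora-Treg cells, the log2 fold change was -0.75 (edgeR QL adjusted p = 0.00015), and the part of myeloid cells in this difference was not tested. The constitutive Hmox2 went the other way (0.23 ± 0.04 on the log2 scale, SE, edgeR QL adjusted p = 8.3e-05). The ratio of Hmox1 to Hmox2 FPKM was 0.469, 0.366 and 0.347 in ctrl-Treg and 0.175, 0.174 and 0.202 in Sora-Treg libraries.

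Blvrb, which reduces biliverdin and also flavins, stood at 5.13, 5.33 and 3.44 CPM in ctrl-Treg and at 7.91, 7.81 and 6.12 CPM in Sora-Treg libraries. All Sora-Treg values were higher, and ctrl-Treg library 3 was the lowest of all. The difference on the log2 scale was 0.64 ± 0.15 (SE, edgeR QL adjusted p = 0.0011). It was 0.47 without ctrl-Treg library 3 and 1.08 against that library alone, and the call was lost when limma was run on unfiltered log2(FPKM + 1) values (0.47, adjusted p = 0.085). Blvrb was the only gene of the set to become a higher DEG under any of the 17 alternatives. The part of the myeloid markers, which also differ in that library, was not tested. Blvra, the main biliverdin reductase, differed in log2 terms by -0.10 ± 0.07 (SE, edgeR QL adjusted p = 0.23), although the groups did not overlap, and it was called lower with library totals (-0.22, edgeR QL adjusted p = 0.012) and in the 3 FPKM fits.

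Ferritin light chain fell while ferritin heavy chain did not. Ferritin is a shell of heavy chains, which oxidize iron for storage, and light chains, which help it to mineralize. Ftl1 stood at 730, 744 and 708 CPM in ctrl-Treg and at 579, 548 and 555 CPM in Sora-Treg libraries. Fth1 stood at 621, 629 and 533 CPM and at 661, 636 and 636 CPM. For Ftl1 every Sora-Treg library was far below every ctrl-Treg library, while for Fth1 the highest ctrl-Treg and the lowest Sora-Treg values nearly met.

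The log2 fold change of Ftl1 was -0.37 ± 0.03 (SE, edgeR QL adjusted p = 5.4e-11). That of Fth1 was 0.12 ± 0.04 (SE, edgeR QL adjusted p = 0.018). The call of Fth1 was lost in 8 of 17 alternatives. It rested on ctrl-Treg library 3, without which the log2 fold change was 0.044 (edgeR QL adjusted p = 0.21). It was also lost without Sora-Treg library 1 (0.10, edgeR QL adjusted p = 0.0503) and with DESeq2 (adjusted p = 0.21). With libraries scaled by their totals the difference was 0.0017, and the mean FPKM of Fth1 was 656 without and 657 with Sora. Ferritin is abundant in macrophages, and the share of the myeloid signal in either ferritin gene was not tested. Ctrl-Treg library 3, with few myeloid markers, held the lowest Fth1 level of all.

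The ratio of the chains does not depend on how libraries are scaled. For Fth1 to Ftl1 FPKM it was 0.875, 0.870 and 0.775 without Sora and 1.18, 1.20 and 1.18 with Sora. The groups did not overlap, and by FPKM the light chain mRNA was the more abundant in all ctrl-Treg libraries and the heavy chain mRNA in all Sora-Treg libraries. The 5′ IREs of both genes, shown above, are nearly the same. With 3 libraries against 3, the smallest p of an exact permutation test is 0.1, so this is a description. Ncoa4, the receptor that carries ferritin to lysosomes, fell by 0.21 ± 0.05 on the log2 scale (SE, edgeR QL adjusted p = 0.0023).

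**Figure D4:**
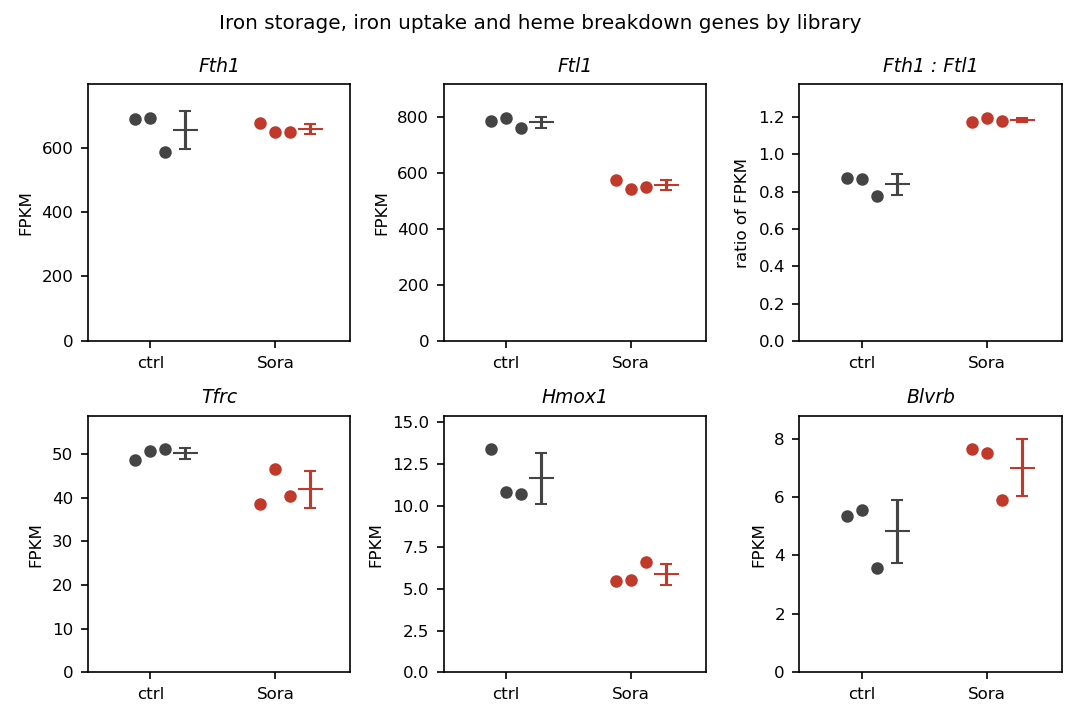
FPKM (y axis, from 0, a scale per panel) of Fth1, Ftl1, Tfrc, Hmox1 and Blvrb, and the ratio of Fth1 to Ftl1 FPKM, in each of 3 ctrl-Treg (dark) and 3 Sora-Treg (red) libraries, with the mean and SD beside the points. FPKM is scaled by library totals, so Fth1 overlaps between the groups here. The ratio lies between 0.775 and 0.875 in ctrl-Treg and between 1.18 and 1.20 in Sora-Treg libraries.

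Iron uptake and sensing showed small or uncertain differences. Tfrc, the transferrin receptor, stood at 240, 252 and 253 CPM in ctrl-Treg and at 207, 250 and 217 CPM in Sora-Treg libraries. The groups overlapped through Sora-Treg library 2. In log2 terms the change was -0.14 ± 0.05 (SE, edgeR QL adjusted p = 0.010). The call was lost in 5 of 17 alternatives. Among them were the fits without ctrl-Treg library 2, Sora-Treg library 1 or Sora-Treg library 3 (edgeR QL adjusted p = 0.059, 0.091 and 0.068). DESeq2 was another (adjusted p = 0.20). The ratio of Tfrc to Fth1 FPKM also overlapped, at 0.0769 ± 0.00866 without and 0.0638 ± 0.00745 with Sora (SD, n = 3). Ireb2, which encodes iron regulatory protein 2, differed in log2 terms by 0.085 ± 0.052 (SE, edgeR QL adjusted p = 0.17). It passed without Sora-Treg library 1 (0.13, edgeR QL adjusted p = 0.042), and its sign turned with library totals (-0.031).

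Steap3, a ferrireductase of endosomes, was a DEG on very few reads. Its counts were 12, 20 and 10 without Sora and 8, 2 and 2 with Sora. These are 0.305, 0.550 and 0.313 CPM against 0.264, 0.0627 and 0.0562 CPM, the last pair below the level of 3 counts. On the log2 scale it came to -1.63 ± 0.62 (SE, edgeR QL adjusted p = 0.028). The call was lost in 6 of the 14 alternatives that could be fitted. Without ctrl-Treg library 2, Sora-Treg library 2 or Sora-Treg library 3 it was -1.29, -1.32 or -1.25 (edgeR QL adjusted p = 0.15, 0.11 and 0.13). With DESeq2 the adjusted p was 0.090.

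Slc11a2, the ferrous iron transporter DMT1, rose by 0.23 ± 0.06 on the log2 scale (SE, edgeR QL adjusted p = 0.0013). That call was lost in 4 of 17 alternatives, among them library totals (0.11, edgeR QL adjusted p = 0.084). Slc40a1, ferroportin, the cell's iron exporter, was the gene with too few reads for a test. Its counts were 3, 1 and 0 without Sora and 2, 0 and 1 with Sora, so no difference was detectable at this depth.

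The 3 genes of lipid remodelling and of the ferroptosis suppressor protein FSP1 were higher, and with library totals 2 of the 3 were. Over all tested genes 29.7% were higher, and 21.3% with library totals. Acsl4, which activates long polyunsaturated fatty acids and so supplies the lipids that peroxidize, stood at 127, 136 and 125 CPM in ctrl-Treg and at 175, 214 and 195 CPM in Sora-Treg libraries. All Sora-Treg values were higher, and the log2 fold change was 0.59 ± 0.05 (SE, edgeR QL adjusted p = 5.6e-10). Aifm2, whose product FSP1 regenerates ubiquinol and protects membranes independently of GPX4, stood at 6.10, 5.77 and 4.85 CPM and at 8.40, 8.25 and 8.29 CPM. Its groups did not overlap either, with a log2 fold change of 0.57 ± 0.12 (SE, edgeR QL adjusted p = 0.00023). Genes known to promote and to oppose lipid peroxidation were thus both higher. Lpcat3, which places such fatty acids into phospholipids, had 0.19 ± 0.06 on the log2 scale (SE, edgeR QL adjusted p = 0.0054). Its call was lost in 6 of 17 alternatives, among them the fit without Sora-Treg library 3 (0.14, edgeR QL adjusted p = 0.058) and that with library totals (0.077, edgeR QL adjusted p = 0.24). Lpcat3 overlaps the more abundant gene Emg1, so its reads are uncertain.

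In the thioredoxin system the reductase fell and the inhibitor rose. Txnrd1, the cytosolic selenoprotein that reduces thioredoxin, stood at 121, 122 and 125 CPM in ctrl-Treg and at 81.4, 86.4 and 86.8 CPM in Sora-Treg libraries. Txnip, the arrestin-like protein that binds thioredoxin and restrains glucose uptake, stood at 80.9, 82.7 and 82.2 CPM and at 123, 120 and 126 CPM. Neither gene overlapped between the groups. The log2 fold change was -0.53 ± 0.04 for Txnrd1 (SE, edgeR QL adjusted p = 2.3e-11) and 0.58 ± 0.04 for Txnip (SE, edgeR QL adjusted p = 2.4e-12). Txn1, thioredoxin itself, fell by 0.18 ± 0.03 on the log2 scale (SE, edgeR QL adjusted p = 6.6e-05).

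Srxn1, sulfiredoxin, repairs overoxidized peroxiredoxins and is an NRF2 target. It stood at 1.96, 2.56 and 1.82 CPM in ctrl-Treg and at 3.13, 2.60 and 2.50 CPM in Sora-Treg libraries. The groups overlapped through ctrl-Treg library 2. The fitted log2 change was 0.37 ± 0.22 (SE, edgeR QL adjusted p = 0.14).

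The peroxiredoxins, thiol enzymes that remove hydrogen peroxide, did not move together. Prdx5, found in mitochondria and peroxisomes, stood at 60.6, 65.8 and 63.2 CPM in ctrl-Treg and at 110, 104 and 108 CPM in Sora-Treg libraries. This was the largest rise of the set by adjusted p and by fold, with a log2 fold change of 0.76 ± 0.04 (SE, edgeR QL adjusted p = 2.0e-13). Prdx5 overlaps Trmt112, so reads could have been split between them. Prdx2, a cytosolic member, stood at 165, 163 and 157 CPM and at 239, 223 and 229 CPM, and Prdx6, which also acts on phospholipids, rose by 0.22 ± 0.04 on the log2 scale (SE, edgeR QL adjusted p = 2.6e-05). The call of Prdx6 was lost in 1 of 17 alternatives.

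Prdx1, the other main cytosolic member and an NRF2 target, went the opposite way. It stood at 153, 149 and 146 CPM in ctrl-Treg and at 116, 115 and 108 CPM in Sora-Treg libraries, without overlap. The log2 fold change was -0.40 ± 0.04 for Prdx1 (SE, edgeR QL adjusted p = 1.7e-09) and 0.51 ± 0.03 for Prdx2 (SE, edgeR QL adjusted p = 6.5e-12). In mean FPKM, Prdx1 and Prdx2 had 110 and 108 in ctrl-Treg cells and 76.5 and 142 in Sora-Treg cells.

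Superoxide dismutases and catalase were lower or not called. Cat, the peroxisomal enzyme that splits hydrogen peroxide, stood at 67.7, 66.5 and 69.6 CPM in ctrl-Treg and at 52.2, 52.8 and 49.3 CPM in Sora-Treg libraries. All Sora-Treg values were lower, and the log2 fold change was -0.40 ± 0.04 (SE, edgeR QL adjusted p = 4.0e-08). Sod2, the mitochondrial dismutase, fell by 0.22 ± 0.05 on the log2 scale (SE, edgeR QL adjusted p = 0.00047). Sod1, the cytosolic enzyme, had -0.060 ± 0.031 (SE, edgeR QL adjusted p = 0.098), and -0.18 with library totals, where it passed (edgeR QL adjusted p = 3.0e-05).

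**Figure D5:**
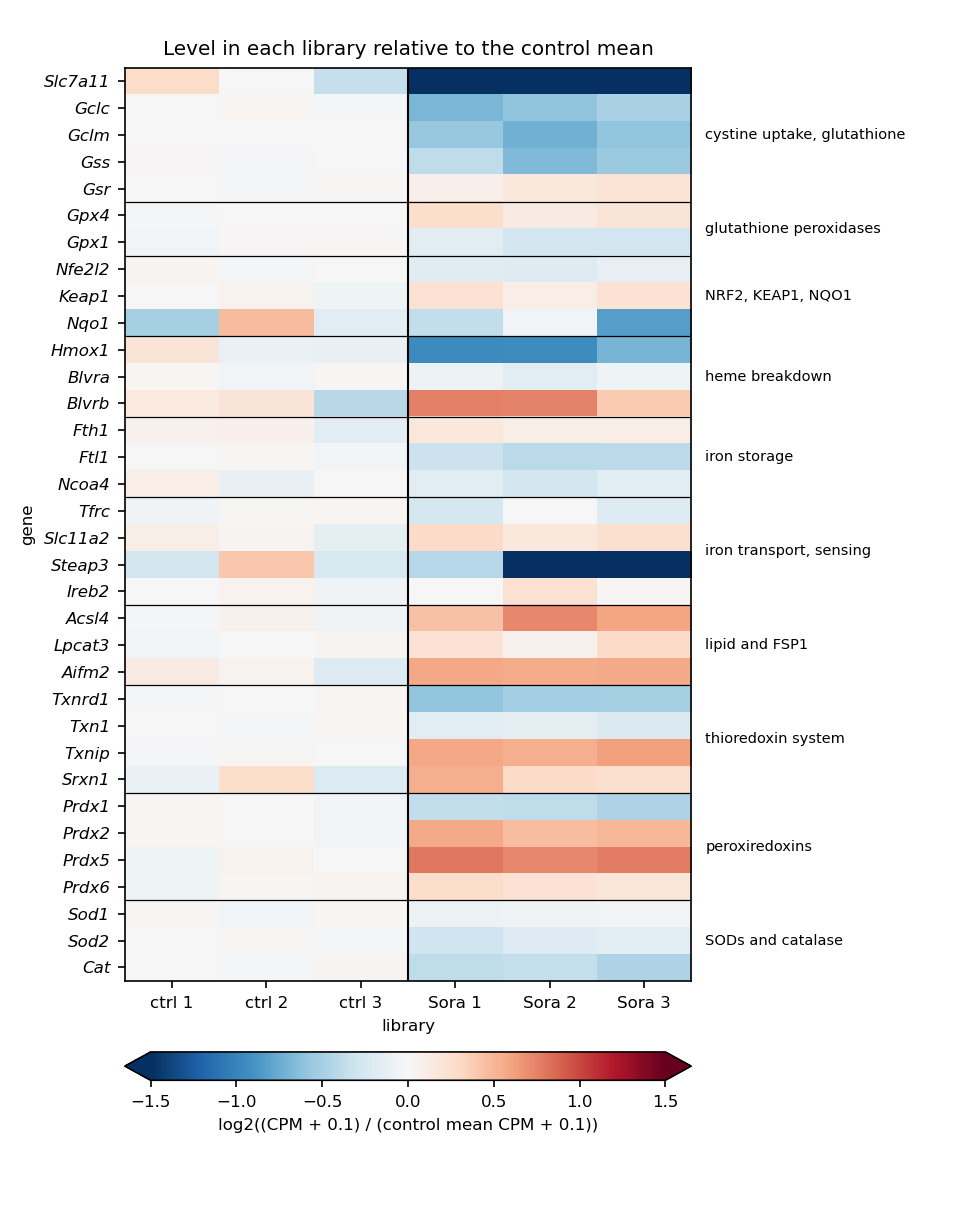
Level of the 34 tested genes (rows, by role) in the 6 libraries (columns), as log2 of CPM plus 0.1 over the mean of the ctrl-Treg libraries plus 0.1, with colours limited at 1.5 either way. The 3 Sora-Treg columns are alike for most genes, with lower Slc7a11, Gclc, Gclm, Hmox1, Txnrd1 and Prdx1 and higher Blvrb, Acsl4, Aifm2, Txnip, Prdx2 and Prdx5, and ctrl-Treg library 3 stands apart for Blvrb.

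Ordered by promoter pattern, none of the 8 genes with TGACNNNGC in their window was called higher in Sora-Treg cells. Nfe2l2, Gclm, Prdx1, Txnrd1 and Ncoa4 were called lower, and Blvra, Srxn1 and Sod1 were not called. In the whole set 38.2% of tested genes were higher and 47.1% lower, and over all tested genes 29.7% and 29.9%. Of 25 other tested genes that regulate NRF2 or respond to it, 14 were higher and 6 lower. The sorting by promoter pattern was made after the values were seen and has no test.

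Beyond the 35 genes, longer lists of the same pathways were counted in the same fit. The median log2 fold changes of the 7 lists ran from -0.15 for ferroptosis and lipid genes to 0.16 for NRF2 response genes and regulators. Over all tested genes the median was -0.0035. With library totals the medians of the lists ran from -0.26 to 0.050, beside -0.12 for all tested genes. Of all tested genes, 29.7% were higher and 29.9% lower in the main fit, and 21.3% and 41.7% with library totals. The counts of each list below are to be read against the shares of their own scaling. Of 36 other tested glutathione genes, 6 were higher and 11 lower, and with library totals 5 were higher and 18 lower. The furthest apart were Cth, the enzyme that makes cysteine from cystathionine, and Gpx8, a peroxidase of the endoplasmic reticulum. Cth stood at 49.9, 49.4 and 49.9 CPM in ctrl-Treg and at 10.1, 9.98 and 10.8 CPM in Sora-Treg libraries, a log2 fold change of -2.27 ± 0.06 (SE, edgeR QL adjusted p = 9.7e-19). Cbs, the enzyme before it on the route to cysteine, was not called (-0.36, edgeR QL adjusted p = 0.58) on 39 and 27 counts. Gpx8 had 7 counts over the ctrl-Treg and 72 over the Sora-Treg libraries, a ratio of 11.3 with an exact 95% interval of 5.22 to 29.2 that covers counting error only. Ggt1, which cleaves extracellular glutathione, was higher (1.61 on the log2 scale, edgeR QL adjusted p = 0.0015). Gpx3, the secreted peroxidase, was lower (-2.15, edgeR QL adjusted p = 0.0034) on 70 and 14 counts.

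Of 25 other tested genes that regulate NRF2 or respond to it, 14 were higher and 6 lower. With library totals 10 were higher and 7 lower. The list includes regulators, so its counts are not counts of NRF2 targets. Among these regulators Bach2, Cul3, Rbx1, Maff and Mafk were higher in the main fit, Bach1 was lower and Mafg was not called. Akr1b8, an aldo-keto reductase, and Osgin1 had the largest rises (1.51 and 1.43 on the log2 scale, edgeR QL adjusted p = 3.1e-09 and 3.5e-06). Ephx1, the microsomal epoxide hydrolase, stood at 130, 134 and 134 CPM in ctrl-Treg and at 61.9, 57.7 and 58.1 CPM in Sora-Treg libraries, a log2 fold change of -1.17 ± 0.04 (SE, edgeR QL adjusted p = 2.9e-17). Abcc1, an exporter of glutathione conjugates, followed with -0.33 ± 0.03 (SE, edgeR QL adjusted p = 9.3e-09).

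Of 22 other thioredoxin genes, 9 were higher and 8 lower, and with library totals 7 were higher and 10 lower. Prdx4, the peroxiredoxin of the endoplasmic reticulum, rose from 37.9 ± 1.81 to 71.6 ± 3.21 CPM (SD, n = 3), or in log2 terms 0.92 ± 0.05 (SE, edgeR QL adjusted p = 1.5e-13). Park7, a redox-sensing chaperone, rose by 0.67 ± 0.03 on the log2 scale (SE, edgeR QL adjusted p = 5.5e-14). Sesn2, a stress-induced inhibitor of mTORC1, stood at 94.2, 95.0 and 97.7 CPM in ctrl-Treg and at 46.1, 41.9 and 41.4 CPM in Sora-Treg libraries. Its log2 fold change was -1.15 ± 0.05 (SE, edgeR QL adjusted p = 5.8e-16). Msrb3, a methionine sulfoxide reductase, was the other gene with the lowest values (-0.99, edgeR QL adjusted p = 0.031), a call lost in 5 of 6 fits that left out a library, all but the one without Sora-Treg library 3.

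Among 19 genes of selenium use and selenoproteins, 6 were higher and 5 lower, and with library totals 5 were higher and 10 lower. GPX4 and TXNRD1 also hold selenocysteine. Selenom, a selenoprotein of the endoplasmic reticulum, and Scly, which recovers selenium from selenocysteine, were highest (1.06 and 0.72 on the log2 scale, edgeR QL adjusted p = 0.00043 and 1.0e-09). Sephs1 and Eefsec, the elongation factor for selenocysteine, were lowest (-0.53 and -0.40, edgeR QL adjusted p = 1.4e-09 and 5.5e-05).

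Of 32 other iron genes, 10 were higher and 11 lower, and with library totals 7 were higher and 18 lower. The largest rises, of Tmprss6 and Hfe, both regulators of hepcidin in liver, rested on 9 and 46 and on 25 and 83 counts (2.43 and 1.85 on the log2 scale, edgeR QL adjusted p = 0.0030 and 0.0010). Neither passed against ctrl-Treg library 3 alone (edgeR QL adjusted p = 0.18 and 0.060). Lcn2, which binds bacterial siderophores, and Cp, the ferroxidase ceruloplasmin, had the largest falls (-2.14 and -1.82, edgeR QL adjusted p = 5.0e-05 and 0.018). Lcn2 stood at 4.83, 3.71 and 1.25 CPM in ctrl-Treg and at 0.428, 1.13 and 0.674 CPM in Sora-Treg libraries, and Cp at 1.96, 1.59 and 0.125 CPM and at 0.198, 0.753 and 0.112 CPM. Both were high in ctrl-Treg libraries 1 and 2, where myeloid markers were high too, and the part of myeloid cells was not tested. Against ctrl-Treg library 3 alone Lcn2 had -0.74 (edgeR QL adjusted p = 0.31) and Cp turned to 1.46 (edgeR QL adjusted p = 0.34). The call of Cp was also lost without ctrl-Treg library 1, ctrl-Treg library 2, Sora-Treg library 1 or Sora-Treg library 3.

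Of 18 other heme genes, 6 were higher and 5 lower, and with library totals 5 were higher and 6 lower. Abcb6, a porphyrin transporter, and Cpox, an enzyme of heme synthesis, were highest (0.67 and 0.54 on the log2 scale, edgeR QL adjusted p = 3.2e-05 and 2.3e-10). Slc46a1, a carrier of folate and heme, and Nr1d1, the heme-sensing clock repressor, were lowest (-0.81 and -0.77, edgeR QL adjusted p = 0.024 and 0.0059). Slc46a1 no longer passed without ctrl-Treg library 1 (-0.52, edgeR QL adjusted p = 0.22) or Sora-Treg library 2 (-0.69, edgeR QL adjusted p = 0.079), nor Nr1d1 without ctrl-Treg library 2 (-0.57, edgeR QL adjusted p = 0.067).

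Of 51 other ferroptosis and lipid genes, 14 were higher and 24 lower, and with library totals 13 were higher and 29 lower. Scd1, which makes monounsaturated fatty acids that resist peroxidation, stood at 34.7, 33.7 and 39.9 CPM in ctrl-Treg and at 164, 171 and 165 CPM in Sora-Treg libraries. The difference on the log2 scale was 2.21 ± 0.05 (SE, edgeR QL adjusted p = 1.5e-20). Mboat2, which places monounsaturated fatty acids into phospholipids, rose by 1.09 ± 0.07 on the log2 scale (SE, edgeR QL adjusted p = 2.8e-12). Ptgs2, cyclooxygenase 2, whose mRNA is widely used as a marker of ferroptosis, fell to few counts, from 2.67, 2.53 and 1.69 CPM to 0.527, 0.0941 and 0.309 CPM (-2.89 ± 0.39, SE, edgeR QL adjusted p = 1.2e-06). Alox5ap, the partner of arachidonate lipoxygenase, went from 92 to 21 counts summed over a group (-1.95 ± 0.46, SE, edgeR QL adjusted p = 0.00091). The part of myeloid cells in the falls of Ptgs2 and Alox5ap was not tested.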

How the data were processed

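For each of the 6 libraries the authors deposited raw read counts by gene symbol, and FPKM values. The study's methods name Bowtie2 and GRCm38 and an expectation-maximization algorithm for FPKM, whereas the submitters' processing notes list fastp, HISAT2, HTSeq, R 3.2.0, DESeq2 and GRCm39. Which applies, the annotation release and the strand setting are not given in the sources used here. Reads of overlapping genes, or of ferritin and other genes with processed pseudogenes, are therefore uncertain. The deposited FPKM equalled the count over library total and a fixed length per gene (largest relative difference 1.64e-06), so it is no separate measurement.

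Groups and replicate numbers came from the sample titles. The pairs of libraries within a group differed by more than sampling noise (chi-square per degree of freedom 3.36 to 5.91). Counts were tested with edgeR 4.0.16 in R 4.3.3 (TMM, filterByExpr, quasi-likelihood, Benjamini-Hochberg over 13463 genes), with no covariate. DEGs were those at an adjusted p under 0.05 that changed by more than 1 log2 unit. Standard errors are those that the F statistic implies. Alternatives were RLE, upper quartile and total-count scaling, other filters, DESeq2 1.42.0, limma 3.58.1 on log2(FPKM + 1) and log2(FPKM + 0.1), a replicate block, each library left out and, added after seeing the data, only ctrl-Treg library 3 against the Sora-Treg libraries. In that last fit the lone library is assumed to vary like the others. The fits were tested on simulated data.

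The genes and lists were chosen with earlier results of these data known, so they give no independent support. All 35 genes are accounted for, with values in every library for DEGs and for genes chosen by role. Of each longer list, up to 2 of the highest and 2 of the lowest fold changes at an adjusted p under 0.05 are named. Values in every library for Blvrb, Prdx1, Prdx2, Prdx5 and Cat, and the naming of Cbs and of Slc3a2 and Hmox2 beyond their ratios, were added after the values were seen. Promoter windows are from RefSeq and transcripts from GENCODE M21, and both strands of a window were searched.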

Additional observations from a re-analysis of the deposited data

How the results depend on the processing

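Of the 34 tested genes, 20 kept their direction and their side of the threshold under all 17 alternatives that could be fitted for them, among them Gclc, Gclm, Gss, Hmox1, Ftl1, Acsl4, Aifm2, Txnrd1, Txnip, Prdx1, Prdx2, Prdx5 and Cat. Slc7a11 could be fitted in 15 of the 17, passed in each, and ranged from -3.62 to -0.39 on the log2 scale, the last with log2(FPKM + 1), which shrinks low genes. The count of higher genes was 13, and it was 8 with library totals, 7 with log2(FPKM + 1), 7 with log2(FPKM + 0.1) and 5 with log2(FPKM + 1) without a filter. The count of lower DEGs was 2. It was 1 with a CPM of at least 1 in 3 samples (Steap3 and Nqo1 are then not tested), 1 with DESeq2 and 0 with each of the 3 FPKM fits. The FPKM fits with a filter tested neither Slc7a11 nor Steap3, and the value of -0.39 for Slc7a11 is from the fit without a filter. Fits that left out a library gave 1 to 2, with 1 without ctrl-Treg library 2, Sora-Treg library 2 or Sora-Treg library 3. The count of higher DEGs was 0 and became 1 (Blvrb, 1.08) against ctrl-Treg library 3 alone. With the replicate block it stayed at 0, with 13 genes higher, 16 lower and 2 lower DEGs. Deviations of same-numbered libraries correlated by -0.031, 0.081 and 0.043, so no pairing by replicate number was visible. Whether same-numbered libraries shared an animal or a culture is not stated. Ireb2, not called, changed sign with library totals (-0.031), log2(FPKM + 1) with and without a filter (-0.029 in both) and log2(FPKM + 0.1) (-0.033). All of these fits scale libraries by their totals. Cp changed sign against ctrl-Treg library 3 alone (1.46). The cause was not tested. Depth limited Nqo1, Steap3 and Slc40a1, whose counts per library were at most 20.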
